A study of Homo sapiens with 3 samples.

Results

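The sites of the lncRNA SRA and of the RNA helicase p68 on human chromosome 11 were examined in NTERA2, an established embryonal carcinoma cell line used as a model of human pluripotent stem cells. SRA was mapped by ChIRP-seq, in which biotinylated DNA oligonucleotides complementary to an RNA recover that RNA with the chromatin around it, and p68 by ChIP-seq with an antibody against the protein. All sites of chromosome 11 were taken from the list deposited for each assay, without any selection on their values. They were 596 of 7899 SRA sites (7.55%) and 754 of 14131 p68 sites (5.34%), in hg19 positions. The labels name no treatment, genotype or second condition of the cells, which were grown in DMEM with FBS, and the input chromatin was not analysed here. Each list is the intersection of 3 biological replicates made by the authors and holds only the chromosome, start and end of each site. Read depth and the spread between replicates are therefore unknown, no test between conditions was possible, and the intervals given cover counting error only. SRA peaks were called at a looser threshold than p68 peaks (p below 1e-04 against 1e-05) and LacZ probe peaks were removed from the SRA list alone, so that the numbers of SRA and p68 sites are not measures of how much DNA each occupies.

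SRA is transcribed from SRA1 and acts as an RNA coregulator that associates with transcription factors and chromatin proteins. The DEAD-box helicase p68, encoded by DDX5, unwinds RNA duplexes and is a known partner of SRA. Chromosome 11 is of interest for this pair because its short arm carries the imprinted genes H19, which gives a noncoding RNA from the maternal allele, and IGF2, a fetal growth factor expressed from the paternal allele. The insulator between them is bound by CTCF on the maternal copy.

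The SRA list rests on 29 probes, each 20 nt long, designed to cover the SRA transcript. Their numbering follows the study, and their positions along the transcript were not examined. The first, the middle and the last by number are shown, with no part marked in capitals. The probes are the reagent that defines what was recovered as an SRA site.
SRA_1: ggctgatgtcatcacatacc
SRA_15: tctctgatgcggggactctg
SRA_29: tgaggcagcagtttgtttgg
Promoters were the only genomic sequence used here. The probes were compared on both strands with RefSeq promoters of GRCh38.p14, of 300 bases each. None of 1893 promoters of chromosome 11 held a probe with up to 2 mismatches, and the closest stretch differed from a probe at 3 bases. Among all 35116 promoters 1 held a match with 2 mismatches (0.00285%) and none a closer one. Sequence of hg19 was not used here, so the probes were not compared with the sites themselves and sequences of sites are not shown. The promoter comparison therefore says nothing on matches at the sites, and the number of matches for unrelated probes was not determined. Per the study, a screen of its SRA data for homology to the probes gave no significant number of sequences at up to 2 mismatches.

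SRA sites ran from base 237320 to base 134145342 and p68 sites from base 189234 to base 134796002, so that both lists spanned nearly the same range. The SRA sites covered 1.45 Mb with a median width of 2098 bp (quartiles 1522 and 2908 bp). The p68 sites covered 0.956 Mb and were narrower, with a median of 1091 bp (quartiles 932 and 1452 bp). Over the span of both lists there were 4.43 SRA sites and 5.60 p68 sites per Mb. Among the 14 chromosomes with at least 100 SRA sites, 3 had more SRA sites than chromosome 11 and 4 a higher density of them, while 7 had a higher density of p68 sites. It held 0.79 SRA sites for each p68 site. This ratio was 0.88 on chromosome 1, 0.47 on chromosome 2 and 1.30 on chromosome 16, and ran from 0.17 on chromosome 19 to 1.54 on chromosome 17.

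The arms were separated at 53 Mb, with a site placed on the side of its midpoint. The short arm side held 186 SRA sites (31.2%, 95% Wilson interval 27.6 to 35.0%) and the long arm side 410. For p68 the numbers were 217 on the short arm side (28.8%, 25.7 to 32.1%) and 537 on the long arm side. The intervals of the lists overlapped, and whether the lists differed in their division between the arms was not tested. The SRA division depended on crowding, however. When neighbours up to 10 kb apart were joined, 97 of 405 SRA groups lay on the short arm side (24.0%), against 171 of 604 p68 groups (28.3%). SRA sites of the short arm were wider (median 2495 bp) than those of the long arm (1993 bp), but this rested on the sites between 43 and 48 Mb, without which the median of the 26 short-arm sites left was 1875 bp. The p68 sites were of similar width on both, with medians of 1107 and 1087 bp.

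Within each arm the sites were unevenly spread. In 135 windows of 1 Mb, 69 windows held sites of both lists, 39 held p68 sites only, 5 held SRA sites only and 22 held none. Windows without an SRA site were common on the short arm (41 of 53) and less so on the long arm (20 of 82). The 61 windows without SRA still contained 82 p68 sites, most of them on the short arm (53). Conversely, the 27 windows without p68 contained 9 SRA sites, all on the long arm. SRA sites were the more concentrated of the lists, with 412 of them (69.1%) in 19 windows of at least 10 SRA sites. For p68, 453 sites (60.1%) lay in 22 windows of at least 10 p68 sites, and 11 windows reached 10 sites of both lists.

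**Figure D1:**
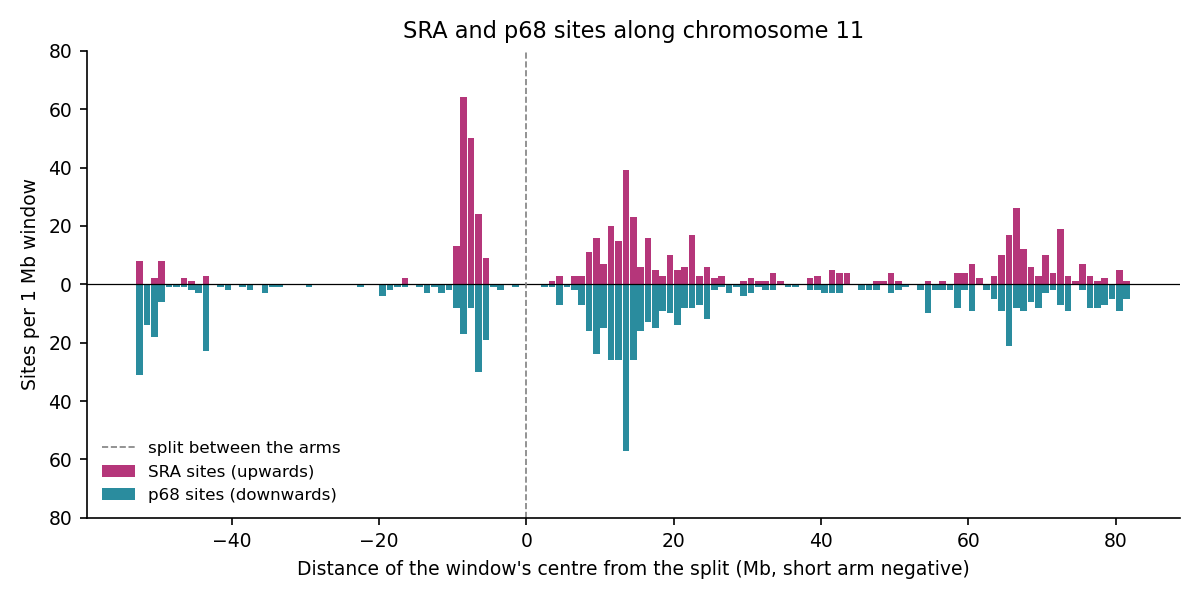
Number of SRA sites (upwards) and p68 sites (downwards) in each 1 Mb window of chromosome 11, against the distance in Mb of the window's centre from the split between the arms at 53 Mb. The highest SRA bars, 64 and 50 sites, stand on the short arm above 17 and 8 p68 sites, whereas the highest p68 bar, 57 sites on the long arm, stands with 39 SRA sites.

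The most SRA-rich window of the chromosome, from 44 to 45 Mb on the short arm, held 64 SRA sites and 17 p68 sites. The next, from 45 to 46 Mb, held 50 and 8, and that from 46 to 47 Mb held 24 and 30. These windows are neighbours, and the excess of SRA over p68 was therefore a feature of the first and second of them and not of the third. On the long arm the window from 66 to 67 Mb led both lists, with 39 SRA sites and 57 p68 sites. It was followed for SRA by the window from 119 to 120 Mb, with 26 SRA and 8 p68 sites, and by that from 67 to 68 Mb, with 23 and 26. For p68 on the long arm, the windows from 64 to 65 Mb and from 65 to 66 Mb held 26 p68 sites each, with 20 and 15 SRA sites. The p68 list was also dense, and outnumbered SRA, in separate windows of the first 10 Mb of the short arm. The first Mb held 31 p68 sites and 8 SRA sites, and the window from 9 to 10 Mb held 23 and 3. Between them SRA sites were the more numerous from 3 to 4 Mb (8 against 6) and from 6 to 7 Mb (2 against 1). Across all windows the counts of the lists went together, with Spearman's rho of 0.73 and Pearson's r of 0.62. Over the 53 windows of the short arm rho was 0.62 and r 0.47, and over the 82 of the long arm they were 0.73 and 0.82. These are descriptions over neighbouring windows of a single chromosome, and they rest on the same 2 lists.

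From these counts the chromosome was divided into blocks, whose limits were chosen after the counts had been seen. The block from 43 to 48 Mb held 160 SRA sites, or 26.8% of those on the chromosome, in 5 Mb, and 82 p68 sites (10.9%). This gives 1.95 SRA sites for each p68 site. In the first 10 Mb of the short arm the order was the opposite, with 24 SRA sites and 100 p68 sites, or 0.24 SRA sites for each p68 site. Between these blocks, from 10 to 43 Mb, there were 2 SRA sites and 31 p68 sites. The long arm carried 208 SRA sites and 302 p68 sites between 61 and 78 Mb, a ratio of 0.69. The stretch from 78 to 117 Mb had the same ratio at a much lower density, with 62 and 90 sites (1.59 and 2.31 per Mb). From 117 to 127 Mb SRA sites were again the more numerous, at 110 against 82. The last block, from 127 to 135 Mb, held 20 and 44. The median width of SRA sites was 2584 bp in the block from 43 to 48 Mb, against 1969 bp from 61 to 78 Mb and 1980 bp from 117 to 127 Mb. Without the block from 43 to 48 Mb, 26 of 436 SRA sites (5.96%) and 135 of 672 p68 sites (20.1%) were on the short arm.

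The longest gap in the SRA list ran from base 9770614 to base 36090246 of the short arm. No SRA site was listed in these 26.3 Mb, while 20 p68 sites were (0.76 per Mb). The next gap, 9.40 Mb from base 47576137 to base 56971913, contains the split between the arms and held 11 p68 sites. A gap of 6.69 Mb from base 36616482 to base 43304034 held 10 p68 sites and ended where the SRA-rich block begins. The p68 list had shorter gaps, the longest being 6.87 Mb (from base 23944660 to base 30811195), 3.98 Mb (from base 19967019 to base 23943690) and 3.70 Mb (from base 51579975 to base 55278513). No SRA site was present in any of these 3. Whether some replicates had peaks in these gaps was not tested. Sequence of hg19 was not used here, so any part of these gaps to which reads cannot be mapped was not set apart. This applies also to the gaps around the split between the arms.

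The H19-IGF2 stretch, taken as the 300 kb from 1.95 to 2.25 Mb, addressed the locus at which SRA, p68 and CTCF have been studied together. In the order of RefSeq genes, H19 is followed by IGF2, INS (insulin) and TH (tyrosine hydroxylase, which makes the precursor of the catecholamines), and preceded by MRPL23. Positions of these genes in hg19 were not used here, so sites are given without assignment to a gene. There were 2 SRA sites in the stretch, 146 kb apart. The first ran from base 2021315 to base 2024520 (3206 bp) and the second from base 2170925 to base 2173618 (2694 bp). The stretch held 8 p68 sites, from 577 to 1673 bp wide. They began at bases 1960545, 2044729, 2106076, 2125530, 2152316, 2160058, 2207990 and 2237648. Sites of the lists counted as shared if no more than 500 bp lay between their edges, the distance that the study used for these factors. Over all chromosomes this applied to 11.6% of SRA sites and to 6.55% of p68 sites, and in the stretch it applied to none. These shares were computed here from the deposited lists. The study gives a higher share of SRA sites with p68, and the cause of the difference was not tested. The p68 site nearest to the first SRA site was 20.2 kb away, with its start at base 2044729, and the one nearest to the second was 9.69 kb away, with its start at base 2160058. With 2 and 8 sites, a count of 0 cannot be told from the shares computed here over all chromosomes. Widening the stretch by 100 kb on each side added 3 p68 sites, for 11 in all, and no SRA site. Of 450 windows of 300 kb along the chromosome, 21 held at least 8 p68 sites and 94 held at least 2 SRA sites.

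**Figure D2:**
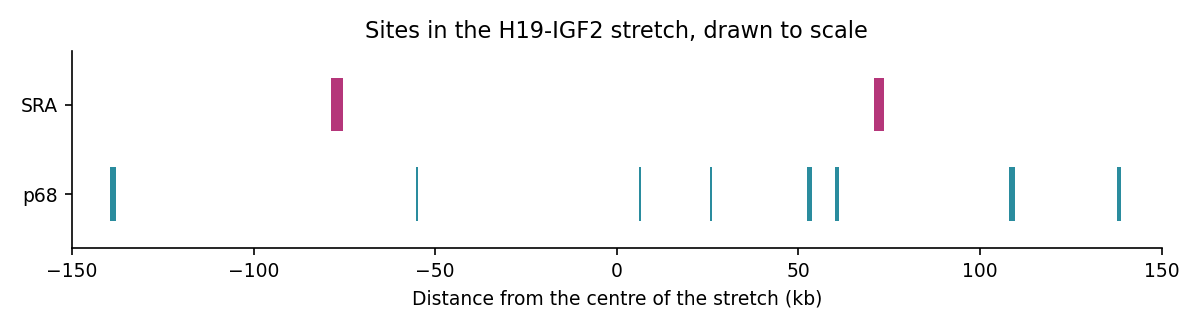
SRA sites (upper row) and p68 sites (lower row) in the H19-IGF2 stretch, each drawn to scale against the distance in kb from the centre of the stretch. The 2 SRA sites lie 146 kb apart, and none of the 8 p68 sites touches either.

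Many SRA sites of chromosome 11 had another in their vicinity, as did those of the whole series. Another SRA site lay within 10 kb of 286 of them (47.99%, 95% Wilson interval 44.0 to 52.0%), against 48.1% over all chromosomes. Among the 14 chromosomes with at least 100 SRA sites, 4 had a higher share than chromosome 11 and 9 a lower one. The median of the others was 31.6%. For p68 sites with another p68 site within 10 kb the share was 32.9% (29.6 to 36.3%), against 37.9% over all chromosomes. Joining sites at this distance gave 405 SRA groups, of which 310 were single sites and 13 held at least 5 sites. These 13 groups, 8 on the short arm and 5 on the long arm, contained 93 SRA sites (15.6% of the list on this chromosome). Over the whole series 11.1% of SRA sites were in groups of that size. The p68 sites formed 604 groups, of which 6 held at least 5 sites, with 31 p68 sites in all (4.11%, against 8.64% over the whole series). The median width of SRA sites in groups was 2224 bp, and that of SRA sites with no neighbour 1920 bp.

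The largest SRA group had 16 sites over 69.2 kb, from base 44859836 to base 44929065. Its sites were from 1387 to 3296 bp wide, covered 52.7% of the span and were separated by gaps with a median of 2032 bp. A single p68 site was present in this group, from base 44911898 to base 44912888, in the gap between consecutive SRA sites. It was 918 bp from the SRA site before it and 988 bp from the one after it, so that none of the 16 SRA sites counted as shared. After 17.5 kb a group of 12 SRA sites followed, from base 44946586 to base 44996188, with 60.4% of its 49.6 kb covered. This group held 3 p68 sites, and 3 of its SRA sites were shared. A group of 8 SRA sites over 48.9 kb, from base 45386342 to base 45435241, held no p68 site. On the long arm, 8 SRA sites from base 67118425 to base 67160246 were accompanied by 3 p68 sites, and 4 of the 8 were shared. A further 7 SRA sites from base 67017866 to base 67056730 had 1 p68 site and 1 shared SRA site. The p68 content of these groups ran from none in the group at 45.4 Mb to 3 sites in the group of 12 and in the long-arm group of 8. Of all SRA sites, 13.4% were shared on the chromosome and 11.6% over all chromosomes. Whether any of these small groups departed from those shares was not tested. When sites up to 20 kb apart were joined, the groups of 16 and 12 became part of 1 group of 35 SRA sites over 221 kb, from base 44794862 to base 45016167, with 7 p68 sites and 4 shared SRA sites.

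**Figure D3:**
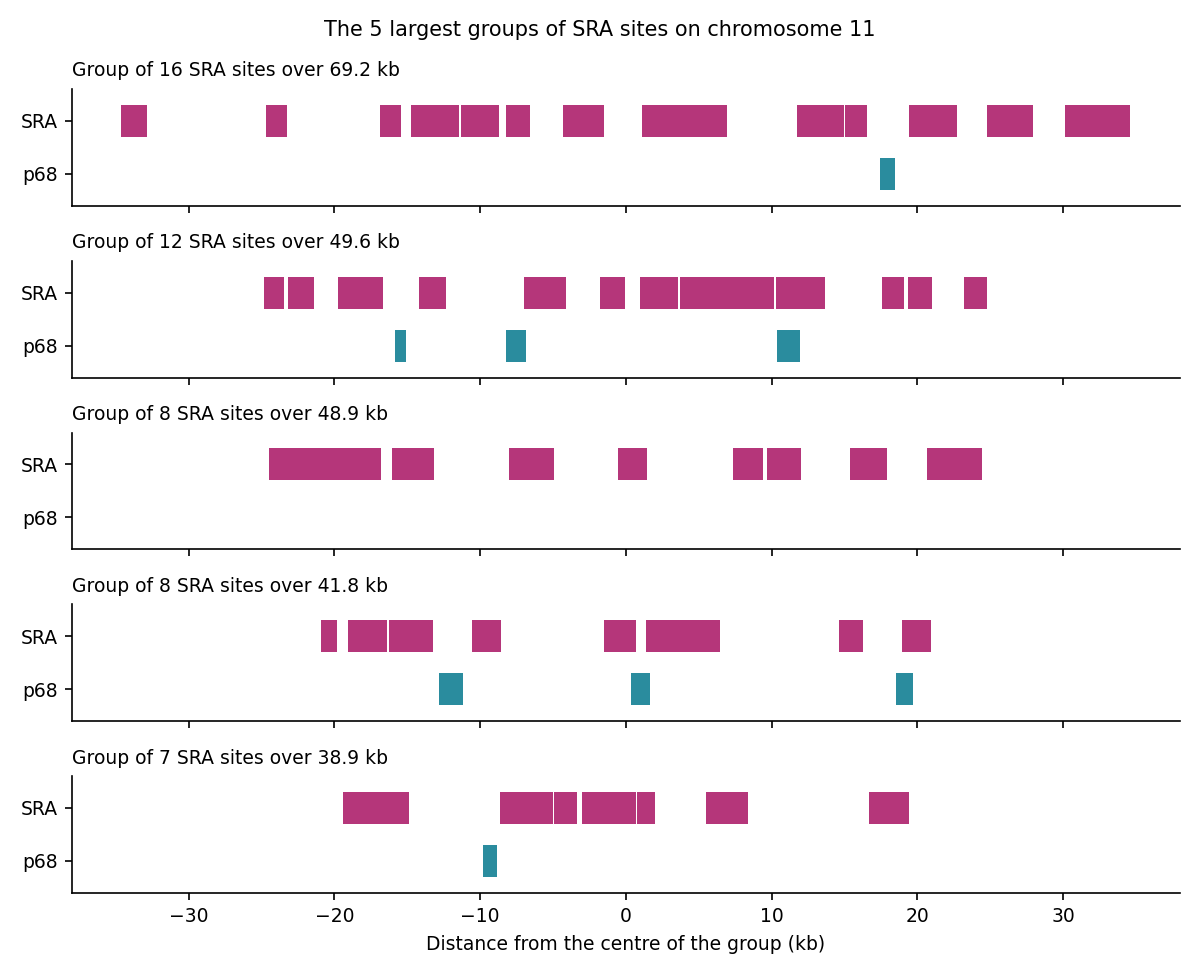
The 5 largest groups of SRA sites on chromosome 11, with SRA sites (upper row of each panel) and p68 sites up to 2 kb beyond the group (lower row) drawn to scale against the distance in kb from the group's centre. The group of 16 SRA sites contains 1 p68 site, the group of 12 contains 3, and the group of 8 over 48.9 kb contains none.

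Groups of p68 sites were smaller. The largest had 6 p68 sites over 30.3 kb, from base 113730828 to base 113761164, and no SRA site in its span. A group of 5 from base 626884 to base 650391 also had none. There were 5 groups of this size, and the shortest of them, from base 9349422 to base 9362393, had no SRA site either. The other 3 lay on the long arm from base 66872038 to base 66894621, from base 66724604 to base 66746050 and from base 65079429 to base 65100104. Each of them had 1 SRA site in its span and 1 shared p68 site. Of all p68 sites on the chromosome 10.1% were shared, and such counts in groups of 5 or 6 sites cannot be told from that share. The sites of these 3 long-arm groups of 5 covered from 43.2 to 49.2% of the span, and those of the group of 6 covered 21.0%.

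The widest SRA sites all lay on the short arm between 43 and 48 Mb. They ran from base 45674588 to base 45686483 (11896 bp), from base 43967764 to base 43976251 (8488 bp) and from base 46011957 to base 46020097 (8141 bp). A p68 site overlapped the second of them, and the nearest p68 sites to the first and the third were 4.13 and 11.8 kb away. The widest p68 sites lay on the long arm, from base 70066478 to base 70071679 (5202 bp), from base 66890273 to base 66894621 (4349 bp) and from base 66727674 to base 66731442 (3769 bp). None overlapped an SRA site, and the nearest SRA sites were 77.7, 4.75 and 8.70 kb away. Of all p68 sites on the chromosome 7.43% overlapped an SRA site, and so few sites cannot be told from that share.

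On the whole of chromosome 11, 80 of 596 SRA sites were shared (13.4%, 95% Wilson interval 10.9 to 16.4%), where the share over all chromosomes was 11.6% and within the interval. From the side of p68, 76 of 754 sites had an SRA site (10.1%, 8.13 to 12.4%), and the share over all chromosomes, 6.55%, was below the interval. The latter share includes chromosomes with few or no SRA sites, such as chromosome 18 with 1 SRA site and 110 p68 sites. Chromosome 11 had 4.43 SRA sites per Mb, against a median of 2.96 on the others with at least 100 SRA sites. This difference in sharing thus cannot be separated from the density of SRA sites. Without the block from 43 to 48 Mb, 56 of 672 p68 sites were shared (8.33%, 6.47 to 10.7%). This interval just includes the share over all chromosomes, which was computed with the block kept. The block was chosen after the counts had been seen and was the densest in SRA sites. Leaving it out therefore cannot decide whether chromosome 11 differs. Among the 14 chromosomes with at least 100 SRA sites, 4 had a higher share of SRA sites with p68 and 2 a higher share of p68 sites with SRA. Chromosome 1 had 15.9 and 14.4%, chromosome 2 had 7.09 and 3.18%, and chromosome 16 had 9.75 and 11.5%. Neighbouring sites are not independent, and the difference between chromosomes was not tested. By overlap of at least 1 bp, 59 SRA sites (9.90%, against 8.96% over all chromosomes) and 56 p68 sites (7.43%, against 5.09%) were shared.

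**Figure D4:**
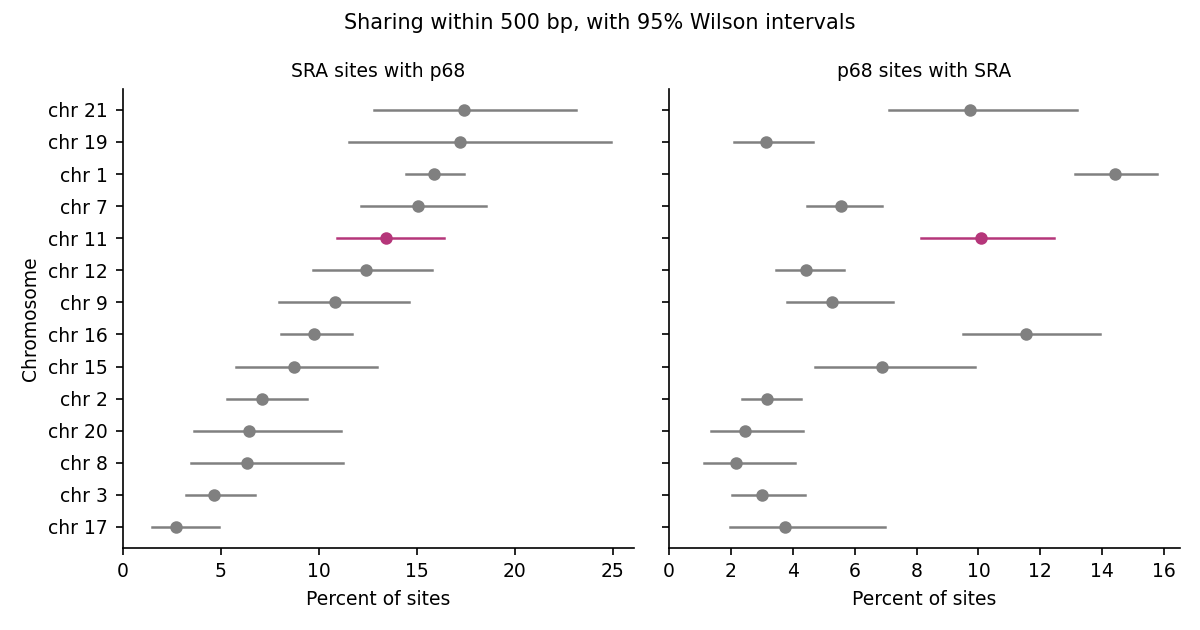
Shares, in percent, of SRA sites near p68 (left) and of p68 sites near SRA (right), both at up to 500 bp, on each chromosome with at least 100 SRA sites, with 95% Wilson intervals. Chromosome 11 (coloured) has 13.4% and 10.1%, with 4 chromosomes above it on the left and 2 on the right.

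On the short arm 26 of 186 SRA sites were shared (14.0%, 9.72 to 19.7%) and on the long arm 54 of 410 (13.2%, 10.2 to 16.8%), with intervals that overlap. For p68 the shares were 10.1% on each. Shared SRA sites were present in 28 of the 74 windows of 1 Mb that held an SRA site. The window from 66 to 67 Mb held 11 shared SRA sites of 39. Those from 44 to 45, from 46 to 47 and from 67 to 68 Mb held 8 each, of 64, 24 and 23 SRA sites. In these 4 windows together 35 of 150 SRA sites were shared (23.3%), against 13.4% on the chromosome. They were picked for holding the most shared SRA sites, so this difference cannot be separated from the choice of windows. In the block from 61 to 78 Mb 39 of 208 SRA sites were shared (18.8%, 14.0 to 24.6%), and in that from 43 to 48 Mb 24 of 160 (15.0%, 10.3 to 21.3%). The block from 117 to 127 Mb, where SRA sites were also dense, had 9 of 110 (8.18%, 4.36 to 14.8%). In the first 10 Mb, 2 of 100 p68 sites were shared (2.00%, 0.55 to 7.001%), and 20 of 82 were between 43 and 48 Mb (24.4%, 16.4 to 34.7%). The share over all chromosomes was 6.55%. These blocks were drawn from the counts and held 2.4 and 32 SRA sites per Mb. Their shares of p68 sites with SRA therefore cannot be separated from the density of SRA sites. SRA sites with a neighbouring SRA site were shared in 16.8% of cases (12.9 to 21.5%) and single ones in 10.3% (7.41 to 14.2%). Those intervals overlap. The median width was 2465 bp for shared SRA sites and 2054 bp for the others, where a wide site also reaches more positions.

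Distances to the nearest site of the other list were examined next. The median distance from an SRA site to the nearest p68 site was 18.4 kb on chromosome 11 (quartiles 3.94 and 53.5 kb), against 22.3 kb over all chromosomes. From a p68 site to the nearest SRA site it was 39.2 kb (7.83 and 137 kb), against 78.3 kb over the 13981 p68 sites on chromosomes with sites of both lists. Those chromosomes include some with very few SRA sites, such as chromosome 18 with 1 and chromosome 6 with 4. The difference between these medians thus cannot be separated from the number of SRA sites per chromosome. A p68 site was present within 10 kb of 230 SRA sites (38.6%) and within 100 kb of 513 (86.1%). The nearest p68 site was at a median of 9.18 kb in the block from 61 to 78 Mb, 13.5 kb from 43 to 48 Mb, 32.0 kb from 117 to 127 Mb and 112 kb from 78 to 117 Mb.

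The shared sites formed 85 pairs, of which 63 overlapped and 22 were separated by up to 500 bp, with a median gap of 242 bp. In the overlapping pairs a median of 424 bp was common to both sites (quartiles 206 and 600 bp), which was 33.6% of the p68 site and 17.03% of the SRA site. The p68 site lay wholly inside the SRA site in 6 pairs. The 5 longest overlaps were all of this kind. They comprised the p68 sites from base 44981759 to base 44983347 (1589 bp), from base 65258826 to base 65260079 (1254 bp), from base 45012230 to base 45013384 (1155 bp), from base 44746827 to base 44747847 (1021 bp) and from base 44577512 to base 44578499 (988 bp). The SRA sites around them were from 2804 to 4693 bp wide, and 4 of these 5 pairs lay on the short arm between 44 and 46 Mb. The last of them was the only pair of the chromosome with midpoints at most 500 bp apart, at 30 bp.

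Over all p68 sites of the chromosome, p68 midpoints were densest just outside the edges of SRA sites. The 500 bp next to an SRA edge contained 33 p68 midpoints, or 60.2 per Mb (95% exact Poisson interval 41.5 to 84.6). Inside SRA sites there were 16, or 11.05 per Mb (6.32 to 17.9). Further out the density was 44.5 per Mb from 0.5 to 1 kb (28.2 to 66.8), 20.6 per Mb from 1 to 2 kb (12.6 to 31.8), and 12.2 per Mb from 10 to 50 kb (10.6 to 13.9). The interval inside SRA sites thus did not reach that of the first 500 bp outside and overlapped that of the distant zone. Both arms had this order, with 11.3 per Mb inside and 62.0 per Mb in the first 500 bp on the short arm, and 10.9 and 59.5 on the long arm. These sites are part of the lists in which this arrangement had been seen before, and are not an independent case of it.

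**Figure D5:**
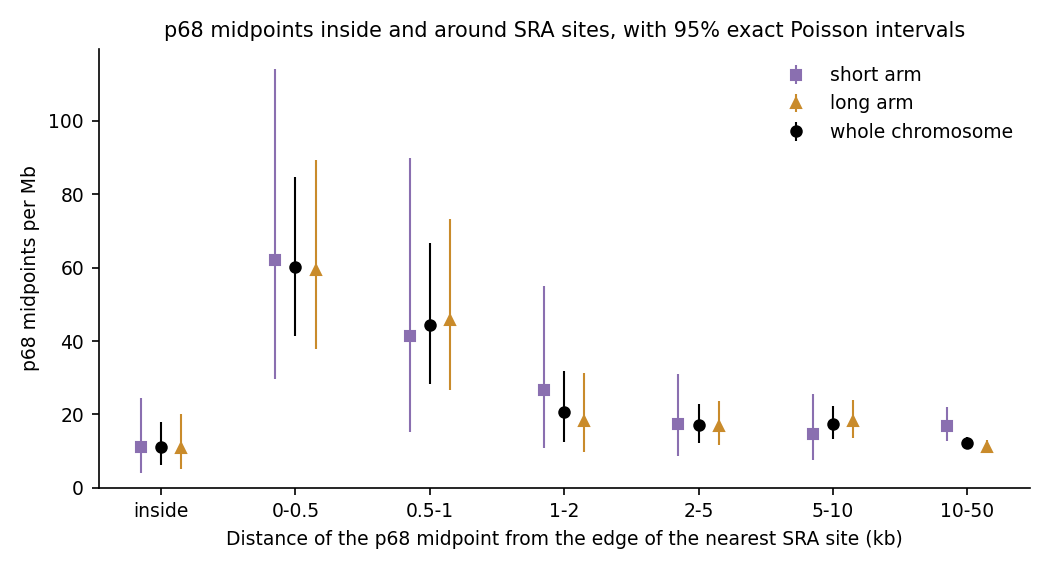
Midpoints of p68 sites per Mb of DNA inside SRA sites and in zones at increasing distance (kb) from the nearest SRA edge, for the whole chromosome and for each arm, with 95% exact Poisson intervals. The density is highest in the first 0.5 kb outside SRA sites, at 60.2 per Mb, against 11.05 per Mb inside them.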

How the data were processed

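SRA ChIRP-seq and p68 ChIP-seq of NTERA2 were analysed from 1 deposited list of site positions per assay. Per the methods of the study, the authors mapped 50 bp single-end reads to hg19 (the aligner is not given in the sources used here, and the submitters' processing notes name CASAVA 1.8.2 and MACS), dropped duplicates and reads mapped with a quality below 20, called peaks with MACS 1.4.2, and intersected the lists of 3 replicates. LacZ peaks were subtracted from SRA. A deposited site has no score or count, so depth is unknown and each value is limited to counting error.

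The members and all comparisons were chosen with earlier results of these data known. Chromosome 11 sites were used unfiltered, with starts printed counting from 1. Sites joined at 10 kb formed groups. Those printed singly are the 3 widest sites, 5 largest groups, 3 fullest windows per arm, 5 longest overlaps and 3 longest gaps of each list (groups of equal size taken by span), and all sites of the H19-IGF2 stretch. The intervals are 95% Wilson intervals for shares and exact Poisson intervals for densities. Alternatives concerned the rule for sharing, the split, windows, joining and left-out sites. Functions for sharing and grouping were tested on simulated data. Python 3.11.15, numpy 2.4.6, scipy 1.17.1, pandas 2.3.3 and matplotlib 3.10.9 were used.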

Additional observations from a re-analysis of the deposited data

How the results depend on the processing

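Of 49 alternatives, 29 left the value within its 95% interval or, for counts of sites and windows, within 1.5 times. The percent of SRA sites with p68 (13.4%) was 9.90% by overlap, 18.5% when gaps up to 2 kb counted, 0% (0 of 596 sites, upper limit 0.64%) when coverage of 50% of the site was required, 0.168% for midpoints up to 500 bp apart and 4.70% among narrow sites. The percent of p68 sites with SRA (10.1%) was, in the same order, 7.43%, 14.1%, 2.39%, 0.133% and 3.71%. The short arm's share of SRA sites (31.2%) was 24.0% with neighbours up to 10 kb apart joined, 36.8% by covered bases and 5.96% without the block from 43 to 48 Mb, an alternative added after the data had been seen. That of p68 (28.8%) was 20.1% without the block, where the percent of p68 sites with SRA was 8.33%. The largest group joined at 20 kb held 35 SRA sites or 12 p68 sites. Neighbours within 2 kb and within 50 kb were found for 24.8% and 75.5% of SRA sites and for 13.3% and 65.9% of p68 sites. The cause was not tested for the narrow sites, where both lists were reduced, or for the covered bases. No paired analysis was possible because replicates are not separate in either list, and none could be left out. None of the 16 SRA sites of the largest group was shared, and leaving it out gave 13.8%.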
